A study of Mus musculus with 2 samples.

Results

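miR-126, miR-130a, miR-130b and the miR-193 pair are miRNAs associated with hematopoietic stem cells, and their levels were read from 1-colour Agilent mouse miRNA arrays of sorted bone marrow cells. Members were chosen by name, as every mature arm of miR-126, miR-130a, miR-130b, miR-193, miR-193a or miR-193b on the array, with earlier results of these data known. The earlier results included their level on each array, their KO to WT difference and their nearness to background. The rule gave 10 of the 1247 miRNAs and 24 of the 3105 probes, covering 400 of the 49880 miRNA spots on each array. One array held RNA of cells labelled WT (CreERT, Tif1bw/w) and the other RNA of cells labelled KO (CreERT, Tif1bf/f). Both samples carried the CreERT transgene on a C57/BL6 background and were c-Kit+ Sca1+ Lineage- bone marrow cells (KSL), a sorted fraction that holds stem cells and early progenitors. Tif1b (Trim28) is a corepressor that silences retroelements and genes, and the letters w and f stand for the alleles as the labels write them. The promoter that drives the transgene, how and when recombination was induced, the age of the animals and their number are not given in the sources used here. There was 1 array per genotype, so every difference below describes these arrays and has no test.

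A miRNA guides the silencing complex to messenger RNAs, mainly through its seed, bases 2 to 8 from the 5′ end, so miRNAs with 1 seed can share targets. miR-126 lies within Egfl7, is abundant in endothelium, and is known to hold hematopoietic stem cells in quiescence by damping growth factor signalling. miR-130a and miR-130b belong to a seed family that also holds miR-301a, and miR-130a is known to be abundant in early hematopoietic progenitors. miR-193a and miR-193b share a seed, are known to target Kit, and miR-193b is known in the mouse to restrain stem cell cytokine signalling.

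The mature sequences of the miRNAs measured on both arrays are shown first, because the seeds place them in families and the other bases separate relatives. They are from RefSeq (GRCm38.p6), written 5′ to 3′ with the seed in capitals. On the array they carry the names mmu-miR-126-3p, mmu-miR-130a-3p, mmu-miR-130b-3p and mmu-miR-193b-3p, and miR-193a-3p and miR-301a-3p are added as the nearest relatives.
miR-126-3p: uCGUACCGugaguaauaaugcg
miR-130a-3p: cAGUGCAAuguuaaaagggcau
miR-130b-3p: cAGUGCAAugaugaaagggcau
miR-301a-3p: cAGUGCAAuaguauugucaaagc
miR-193a-3p: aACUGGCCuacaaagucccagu
miR-193b-3p: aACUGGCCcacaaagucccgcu
miR-130a-3p and miR-130b-3p differ at 2 of 22 positions, U11A and A13G counted from the 5′ end with miR-130a-3p first. miR-193a-3p and miR-193b-3p differ at 3 of 22 positions (U9C, A20G and G21C, miR-193a-3p first). The array's miR-126-3p has the sequence that RefSeq names miR-126a-3p. Among the RefSeq entries used here, 7 carry the seed of miR-130 and 2 carry that of miR-193, while miR-126a-3p is the only one with its seed. miR-301b-3p, known as a member of the miR-130 seed family, is not counted among the 7.

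Mir126a lies inside Egfl7 on chromosome 2, with its 3p arm at chr2:26591402-26591423 on the plus strand, and Mir126b overlaps it on the opposite strand. The 3p arm of Mir130a is at chr2:84741116-84741137 on the minus strand, inside no annotated gene. The 3p arm of Mir130b is at chr16:17124071-17124092 on the minus strand, inside 2610318N02Rik and 257 bases from Mir301b. The 3p arm of Mir193b is at chr16:13449570-13449591 on the plus strand, inside long noncoding RNA genes and 4238 bases from Mir365-1. Mir193a is on chromosome 11, 14365 bases from Mir365-2.

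Each of the 4 miRNAs was read by a pair of probes of which the longer pairs with 1 more base of the seed. The probes are printed 5′ to 3′ as the array files give them, with the added base in capitals.
miR-126-3p, 18 bases: cgcattattactcacggt
miR-126-3p, 19 bases: cgcattattactcacggtA
miR-130a-3p, 18 bases: atgcccttttaacattgc
miR-130a-3p, 19 bases: atgcccttttaacattgcA
miR-130b-3p, 17 bases: atgccctttcatcattg
miR-130b-3p, 18 bases: atgccctttcatcattgC
miR-193b-3p, 16 bases: agcgggactttgtggg
miR-193b-3p, 17 bases: agcgggactttgtgggC
All 8 are the exact complement of the 3′ part of their miRNA, up to its last base. Both probes of miR-130a-3p have 2 mismatches to miR-130b-3p and the reverse holds too, and both probes of miR-193b-3p have 3 mismatches to miR-193a-3p. Whether a probe takes up signal from the relative was not tested.

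The KO array was dimmer than the WT array. Of the miRNA spots, 3308 were well above background on WT and 2510 on KO, and no spot was saturated. Outlier spots, as the scanner software marked them, were left out, and a probe was taken as measured where over 50% of the spots that remained were well above background. A probe passing this rule on both arrays was found for 72 miRNAs, on WT alone for 28, on KO alone for 6 and nowhere for 1141. Probe signals were divided by the 75th percentile of the 113 probes measured on both arrays, which was 487 for WT and 213 for KO, a ratio of 0.437. A scaled difference is KO minus WT on the log2 scale, and 0 therefore means that the KO signal was 0.437 of the WT signal. Each difference is given with a spot SD, taken over the log2 ratios of single spot positions, which is technical and says nothing about animals.

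miR-193b-3p was brighter on the KO array, miR-130a-3p was nearly as bright on KO as on WT, and miR-130b-3p and miR-126-3p were dimmer on KO in about the ratio of the arrays. These were the 4 members measured on both arrays, and the other 6 were measured on neither. Of all 1247 miRNAs 5.77% were measured on both, and the members were chosen with their nearness to background known. Of the 4, 1 was at least 2-fold higher on KO after scaling, against 13.9% of all 72 miRNAs measured on both arrays, and 0 were at least 2-fold lower, also against 13.9%. Their scaled differences ran from -0.09 to 2.25 with a median of 0.49, where all 72 had a median of 0.30 and quartiles of -0.17 and 0.65. In RNA pooled from many cells, fewer cells holding a miRNA and less of it per cell cannot be told apart.

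**Figure D1:**
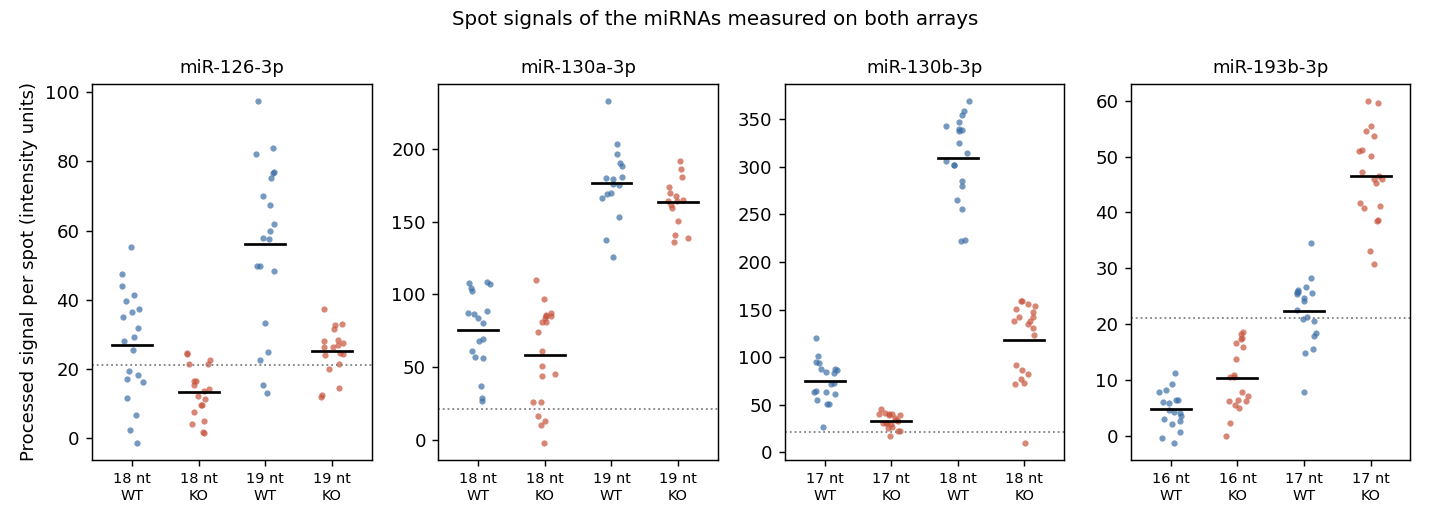
Processed signal of each spot (intensity units, vertical axis) for both probes of the 4 miRNAs measured on both arrays, by probe length and array, leaving out spots marked as outliers. Points are spots, black lines are means and the dotted line is the lowest probe mean measured on KO (21.1). The KO spots of the longer miR-193b-3p probe lie mostly above the WT spots, those of miR-130a-3p overlap them, and those of the longer miR-130b-3p probe lie wholly below.

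miR-193b-3p rests on its 17-base probe. On WT this probe had a mean of 22.4 (SD 5.87 over 19 spots), with spots from 7.81 through a median of 24.2 to 34.5. On KO the mean was 46.6 (SD 8.10 over 20 spots), with spots from 30.8 through 46.3 to 60.0. The spot ranges overlapped narrowly, and at all 19 positions used on both arrays the KO spot was the brighter before any scaling. The signal ratio was 2.08, and the scaled difference was 2.25 (spot SD 0.50), or 4.75-fold. It had the highest difference of the 72, which was known when the members were chosen.

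The WT level of miR-193b-3p was close to background. Of its 19 WT spots 14 were well above background. The brightest of 983 negative control spots on WT reached 19.7, and 14 spots of the probe were above it. The lowest probe mean that counted as measured on WT was 17.7. On KO all 20 spots were above the brightest of 973 negative control spots, which reached 19.9. The 16-base probe was measured on neither array, at 4.67 on WT and 10.3 on KO, and 0 of its spots were well above background on either.

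miR-130a-3p had a clear signal on both arrays. Its 19-base probe had a mean of 176 on WT (SD 25.3 over 16 spots, from 125.5 through 177 to 233) and 163 on KO (SD 16.6 over 15 spots, from 136 through 164 to 192). The spot ranges overlapped almost entirely. Its 18-base probe had a mean of 75.6 on WT (SD 26.9 over 18 spots, from 26.6 through 82.1 to 108) and 58.1 on KO (SD 33.6 over 20 spots, from -1.86 through 67.5 to 110). Of the KO spots of the shorter probe 16 of 20 were well above background, against all 18 on WT. Its lowest KO spots include a pair at -1.86 and 10.05 in rows 381 and 370. There the WT spots were as dim (-1.75 and 4.79) but were marked as outliers and left out. The next lowest KO spots, at 13.2 and 16.2, lay in rows 23 and 36. There the WT spots were bright (104.7 and 88.9), and both positions were kept on both arrays. Using only positions kept on both arrays, the scaled difference of the miRNA was 1.11, from the medians over positions of its probes. That value also replaces means by medians, so it does not show the effect of matching positions alone. The signal ratios of KO to WT were 0.926 and 0.768, and the scaled differences 1.08 and 0.81.

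As the median of both probes, the scaled difference of miR-130a-3p was 0.95 (spot SD 0.73), or 1.93-fold, and before scaling it was -0.25. It lay just under the 2-fold size, at place 11 of 72 from the highest. Of 33 spot positions used on both arrays, 30 had a KO to WT ratio above the scaling ratio, and the middle of these ratios ran from 0.87 to 1.31 by quartiles on the scaled log2 scale.

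miR-130b-3p shares the seed of miR-130a-3p, and its signal was lower on KO in about the ratio of the arrays. Its 18-base probe had a mean of 309 on WT (SD 44.1 over 19 spots, from 222 through 315 to 370) and 118 on KO (SD 40.3 over 20 spots, from 9.97 through 136 to 159). The groups of spots did not overlap, with every KO spot below every WT spot. Its 17-base probe had a mean of 74.7 on WT (SD 21.99 over 19 spots, from 26.0 through 73.1 to 120) and 32.8 on KO (SD 7.86 over 19 spots, from 16.6 through 32.4 to 45.8). The ranges overlapped through 1 WT spot, at 26.0, and the next lowest WT spot, at 50.2, was above every KO spot. The signal ratios were 0.383 and 0.438, close to the scaling ratio of 0.437, and the scaled differences were -0.19 and 0.0030. The difference of the miRNA was -0.09 (spot SD 0.77), at place 48 of 72.

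The scaled difference of miR-130a-3p was 1.04 above that of miR-130b-3p on the log2 scale, or 2.06-fold, a gap in which the scaling factor cancels. Both probes of miR-130a-3p lay above both probes of miR-130b-3p, by at least 0.81. The gap is of the size of its combined spot SD of 1.06, which a few dim spots widen: the lowest position ratio was -3.90 for miR-130b-3p and -1.79 for miR-130a-3p. The middle ratios of miR-130b-3p ran from -0.26 to 0.11 by quartiles and did not overlap those of miR-130a-3p. With 1 array per genotype this gap has no test.

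miR-126-3p was dim on both arrays and rests on its 19-base probe. That probe had a mean of 56.2 on WT (SD 24.1 over 20 spots, from 13.1 through 58.8 to 97.5) and 25.1 on KO (SD 7.002 over 18 spots, from 11.8 through 26.4 to 37.2). The ranges overlapped at the dim WT spots. The signal ratio was 0.447 and the scaled difference 0.03 (spot SD 0.59), at place 43 of 72. The KO mean was just above the lowest probe mean measured on KO, 21.1, with 13 of 18 spots well above background. The 18-base probe was at 27.1 on WT, where 12 of 20 spots were well above background, and at 13.3 on KO, where 3 of 19 were. It was just inside the rule on WT and outside it on KO, and its signal on WT was too low to give a bound on the difference.

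**Figure D2:**
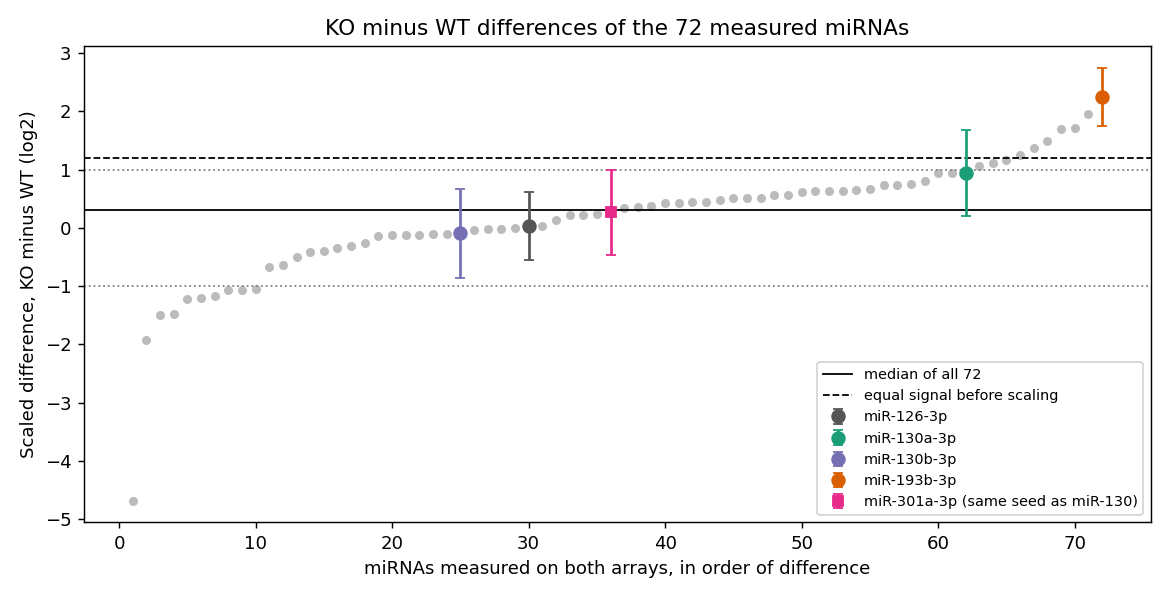
Scaled KO minus WT difference (log2, vertical axis) of the 72 miRNAs measured on both arrays, placed in order of difference along the horizontal axis. Grey points are other miRNAs, the square is miR-301a-3p, error bars are 1 spot SD, dotted lines mark 2-fold, the solid line is the median of 0.30 and the dashed line marks equal signal on both arrays before scaling. miR-193b-3p is at the top end above the dashed line, miR-130a-3p just under 2-fold, and miR-126-3p and miR-130b-3p below the median.

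Against the median miRNA, a scale that the factor between the arrays cannot change, miR-193b-3p was 1.94 higher and miR-130a-3p 0.64 higher. miR-126-3p was at -0.27 and miR-130b-3p at -0.40 on the same scale. On it 8.33% of the 72 were past 2-fold upwards and 13.9% downwards. Without scaling the median miRNA was at -0.89, and 1.39% were past 2-fold upwards and 44.4% downwards. The unscaled differences of the members were 1.06 for miR-193b-3p, -0.25 for miR-130a-3p, -1.16 for miR-126-3p and -1.29 for miR-130b-3p. miR-193b-3p was then the only one of the 72 at least 2-fold higher.

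The software's own total signal per miRNA, with its own detection call, detected the same 4 members on both arrays. A total was 0.283 times the sum of a miRNA's probe means, but not always over the same probes. Both probes entered for miR-130a-3p and miR-130b-3p on each array, and the 17-base probe alone for miR-193b-3p. It gave miR-193b-3p 6.34 on WT (software error 1.29) and 13.2 on KO (software error 1.81). For miR-130a-3p the totals were 71.3 (5.74) on WT and 62.6 (5.30) on KO. For miR-130b-3p they were 108 (9.22) on WT and 42.7 (4.04) on KO. miR-126-3p had 23.5 (2.49) on WT from both probes and 7.10 (1.43) on KO from the 19-base probe alone, so these totals are not like for like and their ratio is not a difference between the arrays. The other 6 members stood at the software's floor of 0.1 on both arrays.

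The 6 members measured on neither array were miR-126-5p, miR-130a-5p, miR-130b-5p, miR-193a-3p, miR-193a-5p and miR-193b-5p. Their 16 probes had means from -9.35 to 10.5 on WT and from -11.0 to 11.5 on KO, and can be below 0 because the software subtracted a fitted spatial surface. Of their 224 used spots on WT and 231 on KO, 0 were well above background, and 8 of the 16 probes were below 0 on both arrays. The highest of these probes was the longest of miR-130b-5p, at 10.5 on WT and 11.5 on KO, which is within the range of the negative control spots. For miR-126, miR-130a, miR-130b and miR-193b the 3p arm was measured and the 5p arm was not, and miR-193a was measured on neither arm. miR-193a-3p, with the seed of miR-193b-3p, had probe means of -3.59 and -3.56 on WT and -3.29 and -4.21 on KO, so a difference between genotypes could not be read for it.

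Spots in the last rows of both arrays were dim, members included. The array has 384 rows. For 104 of 105 probes on WT and 103 of 105 on KO, the median spot in rows above 320 was dimmer than the median of the same probe's other spots. The median ratio was 0.339 on WT and 0.401 on KO. Of the 19-base probe of miR-130a-3p, 4 of 20 spots lay there, with a median of 18.4 on WT against 177 elsewhere, and of 40.0 on KO against 164. The software marked all 4 as outliers on both arrays. The 18-base probe of miR-130a-3p also had 4 spots there, at a median of 15.7 against 85.3 on WT and 18.1 against 81.0 on KO, and 2 of them were marked on WT and 0 on KO. Of the 19-base probe of miR-126-3p, 4 of 20 spots lay there too, at 19.0 against 64.7 on WT and 12.2 against 27.2 on KO, but it marked 0 of them on WT and 1 on KO. The 18-base probe of miR-130b-3p had 1 spot there and the 17-base probe of miR-193b-3p had 2. Leaving those rows out, the scaled differences were 2.34 for miR-193b-3p, 1.07 for miR-130a-3p, -0.0050 for miR-126-3p and 0.0036 for miR-130b-3p.

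**Figure D3:**
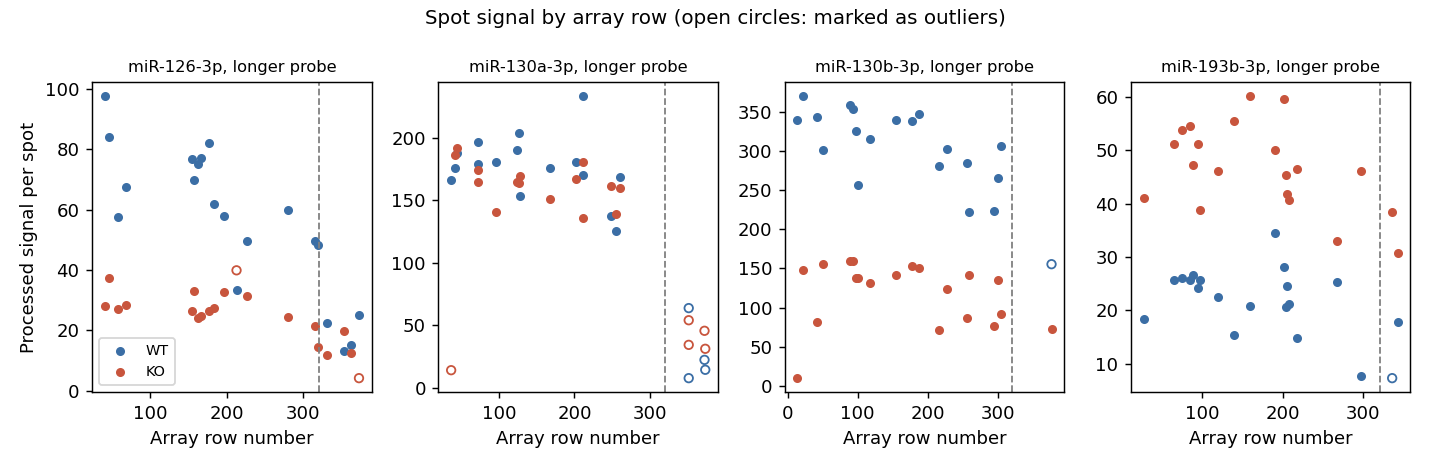
Processed signal of each spot (vertical axis) against its row on the array (horizontal axis) for the longer probe of the 4 measured miRNAs, WT in blue and KO in red. Open circles are spots marked as outliers and the dashed line follows row 320. Most spots beyond the line are dimmer than the others of the same array, and the order of WT and KO elsewhere is steady for miR-193b-3p and miR-130b-3p.

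Of the miRNAs listed as encoded beside a member or sharing its seed, 9 were on the array and 1 was measured on both arrays. miR-301a-3p, of the miR-130 seed family, was at 100.4 on WT (SD 44.5 over 20 spots) with its 21-base probe. On KO this probe was at 53.1 (SD 16.2 over 19 spots), and its spot ranges overlapped. The 20-base probe was measured on WT alone, at 17.7 with 11 of 20 spots well above background. On KO the 20-base probe was at 8.90, with 0 of 20. From the 21-base probe, the scaled difference of miR-301a-3p was 0.27 (spot SD 0.73), or -0.03 relative to the median miRNA. This places it between miR-130b-3p and miR-130a-3p. miR-301b-3p, encoded beside Mir130b and known as a member of the same seed family, was measured on WT only. Its brightest probe was at 27.6 on WT against 14.96 on KO, too dim for a bound. The software's own call differed and detected miR-301b-3p on both arrays, with totals of 3.90 on WT and 2.11 on KO. miR-365-3p, encoded beside both miR-193 genes, was measured on neither array. So were miR-130c, miR-721, the 5p arms of miR-301a and miR-301b and both 5p arms of miR-365. miR-6341 and miR-6389, which also carry the miR-130 seed, were measured on neither.

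The miRNAs nearest to each member were taken by the distance between scaled log2 levels on the 2 arrays, over the 72 measured on both. The level of a probe also depends on how well it binds, so nearness describes the array signal. Distance uses the same levels as the difference, so near miRNAs have like differences by construction. Nearest to miR-193b-3p were miR-6368 (distance 0.33), miR-574-5p (0.62) and miR-1187 (0.81), with differences of 1.95, 1.37 and 1.49. Nearest to miR-130a-3p were miR-3960 (0.25), miR-1224-5p (0.28) and miR-652-3p (0.37). miR-652-3p (0.41) was also nearest to miR-130b-3p, followed by miR-26a-5p (0.44) and miR-23a-3p (0.48). Nearest to miR-126-3p were miR-30c-5p (0.084), miR-140-3p (0.25) and miR-3096a-5p (0.30).

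Other miRNAs associated with stem cells did not share 1 direction. Of 16 on a list without the members, 4 were measured on both arrays, with a median of 0.86 where all 72 had 0.30. miR-155-5p (1.72) and miR-196b-5p (1.16) were at least 2-fold higher, miR-29a-3p (-1.07) at least 2-fold lower, and miR-10a-5p was at 0.57. Another 3 were measured on WT only (miR-99a-5p, miR-146b-5p and miR-22-3p) and 9 on neither array. By the highest probe mean on each array, the brightest of the 9 were miR-125b-5p (18.4 on WT and 13.1 on KO), miR-125a-5p (2.15 and 20.6) and let-7e-5p (10.4 and 21.0). They did not pass the rule on either array, so no difference is read for them.

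The array has no probe for Kit, Sca1, lineage antigens or Tif1b, so neither the sorted fraction nor the loss of Tif1b could be checked on it. Of 6 blood cell miRNAs 3 were measured on both arrays, and the summed signal of the list was 4529 on WT and 345 on KO, with miR-223-3p at 3726 on WT and 63.6 on KO. The 3 did not share 1 direction: the scaled differences were -4.68 for miR-223-3p, -1.06 for miR-142-3p and 1.72 for miR-155-5p. miR-155-5p, which is also on the list of stem cell miRNAs, was at 94.1 on WT and 135 on KO. miR-142-5p was measured on WT only, at 38.6 against 3.18 on KO, and miR-150-5p and miR-181a-5p on neither array. Of 6 endothelial and stromal miRNAs, the list that holds miR-126, only miR-126-3p was measured. Among the others miR-143-3p, miR-145a-5p and miR-214-3p were below 0 and miR-199a-3p was at 4.04 on WT and 1.60 on KO. None of 2 erythroid miRNAs (summed signal 2.37 on WT and 1.94 on KO) or 10 of muscle, liver, brain and epithelium (9.12 and 2.71) was measured. The part of other cells in the members' differences was not tested.

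**Figure D4:**
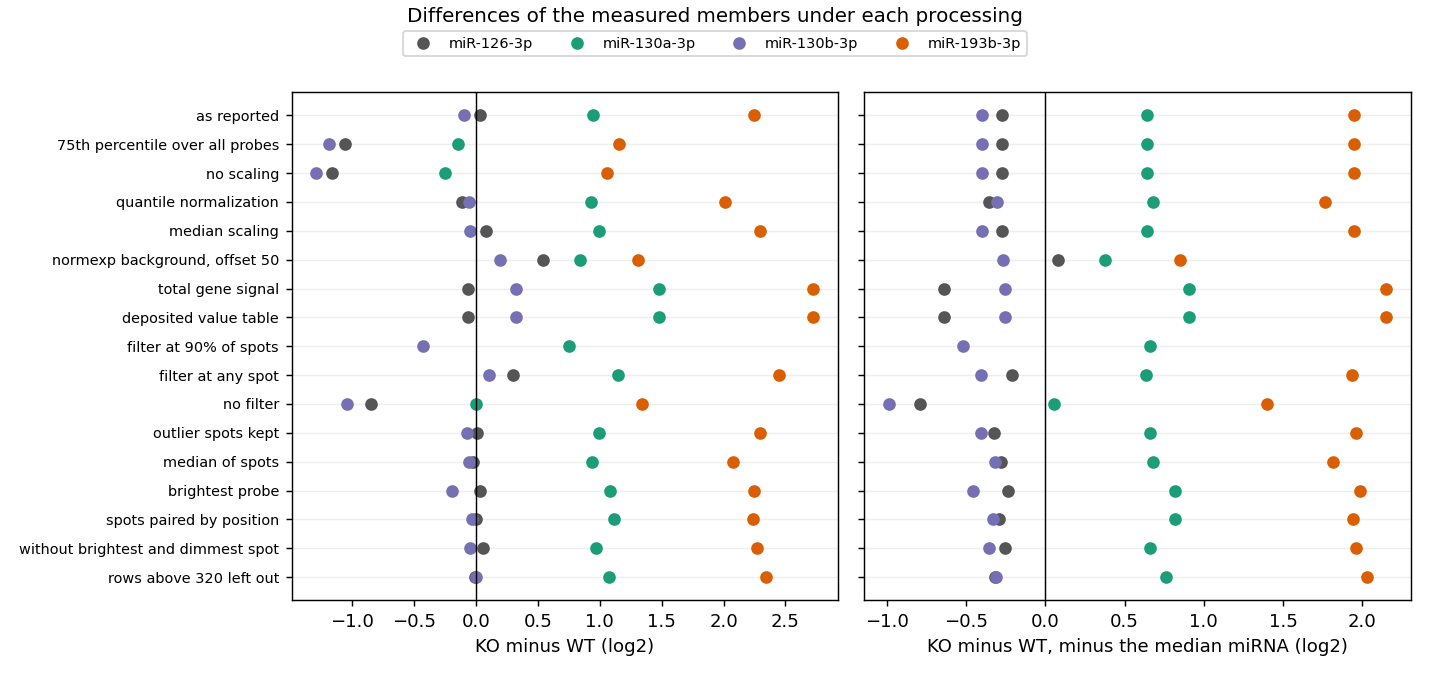
KO minus WT difference (log2, left) and the same minus the median of all measured miRNAs (right) for the 4 measured members, with 1 line for the processing as reported and 1 for each of 16 alternatives. A missing point means that the miRNA was not measured under that setting. miR-193b-3p is above 0 on both scales wherever it was measured, and the left positions of all 4 move with the scaling.

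Across the 16 alternatives, miR-193b-3p stayed at least 2-fold higher in the 15 that measured it, from 1.06 to 2.72, and was not measured where 90% of spots had to be well above background. With limma's normexp background correction and an offset of 50, miR-193b-3p was at 1.31, and 0.85 above the median miRNA, under 2-fold on that scale. The offset is added to every signal and by construction narrows the ratios of dim probes. miR-130a-3p was above miR-130b-3p in all 16, by 0.64 (normexp) to 1.27, but changes of a scaling factor leave this gap the same by construction. miR-130a-3p itself reached 2-fold in 6 of the 16 and was below 0 in 2, both without the scaling used here. miR-126-3p was below 0 in 8 of 15 and miR-130b-3p in 11 of 16. The 8 include total gene signal and the value table that repeats it, which are not like for like for miR-126-3p.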

How the data were processed

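Spot intensity values are linear in the deposited array files. The submitters' processing notes name Agilent Feature Extraction 10.7.3. A fitted spatial surface was subtracted, other background correction was switched off and no scaling of one array to the other is noted, per the file headers. Per the labels' protocols, 100 ng of total RNA was labelled with Cyanine 3. The deposited value table equals the software's total gene signal within 0.1% in 1268 of 1269 rows (1 row has no name), with a median of 0.1 in both columns.

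Spots marked as outliers were left out (5.16% on WT and 4.59% on KO), processed signals averaged per probe, scaled and put on the log2 scale. Where several probes of a miRNA were measured on both arrays, their median was taken. Every miRNA of the rule is named, with those sharing its seed or locus and the 3 nearest to each measured member. Members and lists were chosen with earlier results of these data known. Results were recomputed under 14 alternatives and 2 chosen after seeing the data. The procedure was tested on simulated data without outlier spots or dim rows. Recovery there was read relative to the median unchanged miRNA, so the scaled differences themselves were not checked by it. With 1 array per genotype there is no test, and the number of arrays limits the precision. Python 3.11.15, numpy 2.4.6, pandas 2.3.3, R 4.3.3 and limma 3.58.1 were used.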

Additional observations from a re-analysis of the deposited data

How the results depend on the processing

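No paired analysis was possible because neither genotype had a second array. Differences counted as moved when they shifted by more than 1 spot SD. With the 75th percentile taken over all probes, then without scaling, then without a filter on dim probes, miR-126-3p moved to -1.06, -1.16 and -0.85 (0.03 as reported), miR-130a-3p to -0.14, -0.25 and 0.00032 (0.95), miR-130b-3p to -1.19, -1.29 and -1.04 (-0.09) and miR-193b-3p to 1.16, 1.06 and 1.34 (2.25). With normexp miR-193b-3p moved to 1.31. The gap between miR-130a-3p and miR-130b-3p did not move in any of the 16. A move needed a shift above its spot SD of 1.06, about the size of the gap (1.04). Changes of a scaling factor cannot alter the gap, and the looser filters kept the same probes. Asking for 90% of spots well above background left 2 members (miR-130a-3p and miR-130b-3p) and no filter gave 7 a value. The number of miRNAs at least 2-fold higher and lower on KO (10 and 10) was 1 and 31 over all probes, 1 and 32 without scaling, 29 and 5 by total gene signal and by the value table, 19 and 6 with any spot well above background, and 90 and 123 with no filter. With the 90% filter 3 were higher, and with normexp 1 was lower. Total gene signal, which the value table repeats, holds both miR-126-3p probes on WT and 1 on KO. The alternatives that scale each array by a single factor, or by none, shift every miRNA alike by construction, which quantile normalization does not. The looser filters add dim miRNAs, and other causes were not tested. Signal over background limits miR-193b-3p on WT and miR-126-3p on KO.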
